A study of Mus musculus with 18 samples.

Results

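Skin lacking the microRNA miR-205 was compared with wild-type skin, 3 arrays of each, and the members are the 6 skin arrays that the labels give to these groups, of 18 arrays in all. The miR-205 KO mice are labelled miR-205 knockout and the controls wild type. All animals are labelled C57BL/6, female and 5 to 6 weeks old, and the tissue is skin, for which the protocol names a frozen piece of ear. The other 12 arrays of the study hold skin of a knockout labelled lncKO, which the series title ties to MIR205HG, the host transcript of miR-205, and pituitary of the 3 genotypes, also with 3 arrays per group. RNA was measured on Clariom S arrays, which read most mouse genes with 1 probe set. Arrays are named here by their number in the labels: miR-205 KO 7, 8 and 9, lncKO 4, 5 and 6, and wild type 1, 2 and 3. How the knockouts were made, and whether each array stands for its own mouse, is not in the labels. The p-values therefore describe variation among these arrays, part of which may be technical. A piece of ear holds epidermis, hair follicles, glands, fat, muscle and cartilage together, so fewer cells of a type and less RNA per cell cannot be told apart in any result below.

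MicroRNAs are short RNAs that guide Argonaute proteins to messenger RNAs, mostly through pairing of the seed near their 5′ end, and lower the stability or translation of those messages. miR-205 is made from the transcript of the MIR205HG locus and is abundant in stratified epithelia, the epidermis and the hair follicle among them. In mouse skin it is known for its part in the growth of epidermal and hair follicle progenitor cells, through negative regulators of the PI3K and AKT growth pathway.

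The sequences of miR-205 are given because the arrays do not read them: 0 probe sets are named for Mir205 or its host gene and the genotypes rest on the labels. RefSeq (GRCm38.p6) places the hairpin on the minus strand at chr1:193507463-193507530, the 5p arm at chr1:193507503-193507524 and the 3p arm at chr1:193507467-193507488. Capitals mark the seed, bases 2 to 8, in the mature arms, and the mature arms in the hairpin.
mmu-miR-205-5p: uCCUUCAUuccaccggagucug
mmu-miR-205-3p: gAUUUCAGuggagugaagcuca
Mir205 hairpin: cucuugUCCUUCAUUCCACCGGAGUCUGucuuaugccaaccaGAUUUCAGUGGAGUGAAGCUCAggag
Among the 1679 mouse mature microRNAs of the RefSeq table, 0 others share the seed of either arm.

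The arrays were alike in brightness. The median intensity, on the linear scale of the deposited table, was 82, 89 and 84 in miR-205 KO skin and 88, 96 and 87 in wild-type skin, and 24.1% to 24.2% of probe sets lay at or below an intensity of 16 in miR-205 KO skin, against 22.8% to 23.8% in wild-type skin. Pearson's r of the log2 intensities, across genes, which are not independent replicates, was 0.989 to 0.993 among miR-205 KO arrays and 0.983 to 0.987 among wild-type arrays, and 0.970 to 0.978 between the groups. Wild-type arrays stood apart from each other in several gene lists. Hair lists were low and glucocorticoid-responsive genes high on wild type 3, and keratinocyte genes of wounding and pituitary hormones were high on wild type 1. Counts without an array are given below for the lists whose counts it moves most.

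Keratinocyte markers, which check the labelled tissue, were bright in both groups. Krt5, a keratin of basal keratinocytes, had intensities of 74623, 74513 and 88378 in miR-205 KO skin and 78356, 79896 and 64494 in wild-type skin. Its partner Krt14 had 135821, 127473 and 126500 in miR-205 KO skin and 137172, 123667 and 113614 in wild-type skin. The groups overlapped for both genes, and limma's adjusted p was 0.789 for Krt5 and 0.867 for Krt14. The 8 liver genes measured averaged 4.11 to 4.50 on the log2 scale in miR-205 KO skin and 3.93 to 4.24 in wild-type skin, near the background. The 3 genes of the Y chromosome averaged 2.74 to 2.97 on the log2 scale in miR-205 KO skin and 2.66 to 3.32 in wild-type skin, and 0 of 3 passed the test.

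Of 19572 probe sets tested, 1328 were higher (6.79%) and 1965 lower (10.0%) in miR-205 KO skin at an adjusted p under the threshold of 0.05, together 3293 (16.8%). The counts of gene lists below are read beside these shares. The test was limma's moderated linear model on log2 intensity with Benjamini-Hochberg adjustment. Among those called, 713 were higher and 1179 lower by at least 2-fold, 65 and 121 by at least 4-fold, and 5 and 23 by at least 8-fold. The intensities of the groups did not overlap for 2926 probe sets that were higher (14.9%) and 3909 that were lower (20.0%). Among those called this held for 1305 of the 1328 higher and 1928 of the 1965 lower. Called genes named below were mostly taken by smallest p or largest fold change, so their separation follows largely from that choice. Calls depended on the level of the probe set: above a mean log2 intensity of 12, 10.8% were higher and 5.15% lower, whereas between 8 and 10, 6.10% were higher and 12.7% lower. The brightest probe set of each array reached 1144106, 1156932 and 1243875 in miR-205 KO skin, against 961600, 988100 and 972077 in wild-type skin. With quantile normalization the split was 1643 higher to 1629 lower, and 1677 to 1590 after centring arrays on their medians. Without miR-205 KO 7 the calls numbered 1668, without miR-205 KO 8 2127, and without miR-205 KO 9 2149. With intensities below 16 set to 16 they numbered 2173, and 48 of the 154 called genes named here lost their call.

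**Figure D1:**
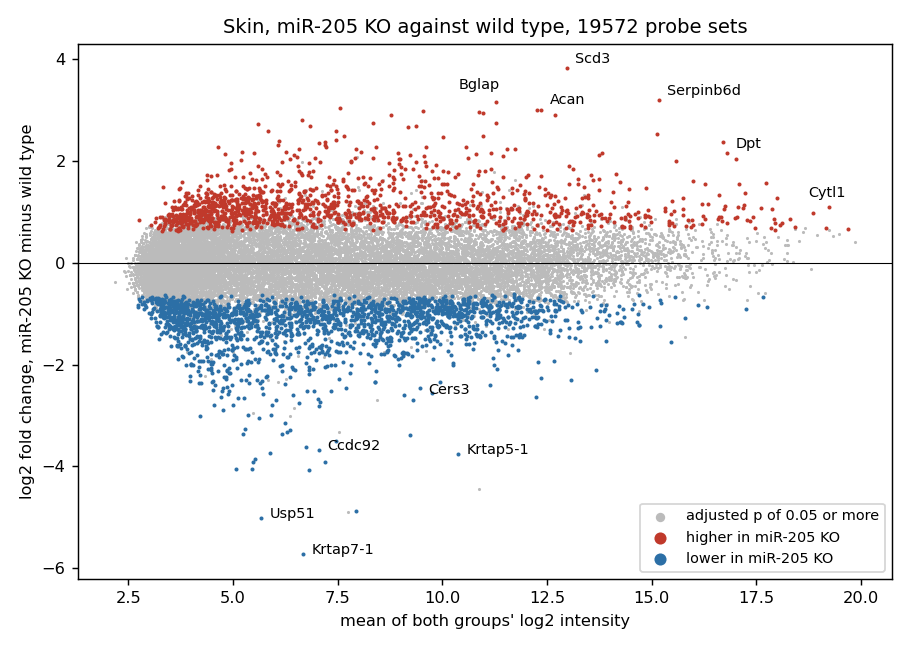
Log2 fold change (miR-205 KO minus wild type, vertical axis) against the mean of both groups' log2 intensity (horizontal axis) for the 19572 probe sets tested in skin. Red points are the 1328 called higher and blue points the 1965 called lower in miR-205 KO skin; the longest falls, Krtap7-1 and Usp51, lie below -5.

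The smallest p-values belonged mostly to genes that fell to near the background. Usp51, a gene of a ubiquitin-specific protease, had intensities of 9, 10 and 8 in miR-205 KO skin, 8, 9 and 8 in lncKO skin and 267, 347 and 267 in wild-type skin. Every knockout array lay at the level of an unread probe set, while the wild-type arrays lay close together. The fold change was -5.02 ± 0.21 (log2, SE, n = 3 per group; limma, adjusted p = 7.22e-08). Its size rests on the background reading of the knockout arrays, and it was -4.19 with intensities below 16 set to 16.

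A further 3 genes, Fnd3c2, Carmil3 and Marchf11, lay at or below 16 on all miR-205 KO arrays and above 64 on all wild-type arrays, and 0 genes showed the reverse. Marchf11, a membrane-bound ubiquitin ligase gene, had 12, 11 and 12 in miR-205 KO skin against 125, 117 and 120 in wild-type skin, a log2 fold change of -3.37 ± 0.27 (limma, adjusted p = 2.85e-05). Carmil3, of a family that regulates actin capping, had 11, 16 and 10 in miR-205 KO skin against 78, 101 and 75 in wild-type skin (-2.80 ± 0.26). Fnd3c2, named for its fibronectin type III domains, had 12, 12 and 12 in miR-205 KO skin against 74, 74 and 68 in wild-type skin (-2.58 ± 0.20).

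Other genes with the smallest p-values were lower as well. Chrna4, a subunit of nicotinic acetylcholine receptors, had 15, 16 and 21 in miR-205 KO skin against 150, 121 and 158 in wild-type skin (-3.05 ± 0.24). Gpr6, a G protein-coupled receptor, had 10, 10 and 10 in miR-205 KO skin against 69, 94 and 62 in wild-type skin (-2.88 ± 0.23). Pcdhb3, a clustered protocadherin, had 10, 10 and 10 in miR-205 KO skin against 57, 44 and 53 in wild-type skin (-2.35 ± 0.21). With intensities below 16 set to 16 the fold change was -2.21 for Gpr6 and -1.67 for Pcdhb3. For these 3 genes the miR-205 KO values lay close together and did not overlap with wild type. Tspoap1, Rgl3 and Ccdc92 completed the 10 smallest p-values together with Bglap, the 1 gene among them that was higher. Ccdc92, a coiled-coil protein gene, had 50, 31 and 32 in miR-205 KO skin, 19, 34 and 25 in lncKO skin and 497, 377 and 565 in wild-type skin (-3.69 ± 0.28; limma, adjusted p = 2.85e-05). Usp51, Fnd3c2, Carmil3, Marchf11, Chrna4, Gpr6, Pcdhb3, Tspoap1, Rgl3 and Ccdc92 kept their calls under all 14 alternatives. In miR-205 KO skin 506 probe sets called lower had a mean log2 intensity of 4 or less, the level at which the fold change depends on the background.

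The 12 genes with the highest fold changes were Scd3, Serpinb6d, Bglap, Cd300lf, Acan, Nrep, Tcap, Crlf3, Mgl2, Col9a3, Krt77 and Krt8. They and the 12 lowest were picked among called genes whose groups do not overlap, so their separation follows from the choice. Serpinb6d, a serine protease inhibitor of a family with close copies, had 122815, 176820 and 64421 in miR-205 KO skin, 237037, 173212 and 208556 in lncKO skin and 19135, 6036 and 15797 in wild-type skin. The log2 fold change was 3.19 ± 0.42 (limma, adjusted p = 0.000611). Bglap, which encodes the bone protein osteocalcin, had 8210, 7461 and 6651 in miR-205 KO skin, 13853, 11218 and 12477 in lncKO skin and 590, 959 and 1014 in wild-type skin (3.16 ± 0.24; adjusted p = 2.85e-05, limma). Its close copy Bglap2 had 7237, 7451 and 7358 in miR-205 KO skin against 1126, 1706 and 2004 in wild-type skin (2.23 ± 0.24). The probes may not tell these copies apart.

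Acan, the cartilage proteoglycan aggrecan, had 17017, 11962 and 16338 in miR-205 KO skin and 1097, 3284 and 1763 in wild-type skin (3.01 ± 0.37). Col9a3, a chain of cartilage collagen, had 1302, 1263 and 1059 in miR-205 KO skin and 250, 163 and 101 in wild-type skin (2.91 ± 0.34). Cd300lf, a receptor of myeloid cells, had 740, 496 and 434 in miR-205 KO skin and 128, 44 and 51 in wild-type skin (3.04 ± 0.36). Mgl2, a lectin of macrophages and dendritic cells, differed in the same direction, with 7560, 4891 and 4728 in miR-205 KO skin and 369, 1018 and 1038 in wild-type skin (2.94 ± 0.38). Crlf3, a cytokine receptor-like factor, had 4550, 6280 and 5032 in miR-205 KO skin and 1015, 581 and 524 in wild-type skin (2.95 ± 0.29). Krt8, a keratin of simple epithelia, was dim: 262, 245 and 292 in miR-205 KO skin and 36, 62 and 25 in wild-type skin (2.80 ± 0.30). Serpinb6d, Bglap, Cd300lf, Acan, Nrep, Crlf3, Mgl2, Col9a3 and Krt8 kept their calls under all 14 alternatives.

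Scd3, a stearoyl-CoA desaturase of the mouse sebaceous gland, had the highest fold change of the 12, 3.82 ± 0.74 (limma, adjusted p = 0.00501). Its intensities were 61748, 8746 and 50928 in miR-205 KO skin, 74498, 44442 and 19617 in lncKO skin and 1367, 5836 and 1220 in wild-type skin. miR-205 KO 8 lay close to wild type 2, and without either of them the fold change was 4.72 or 4.55. Krt77, a keratin of the type II cluster, had 20325, 15042 and 18983 in miR-205 KO skin and 1090, 8505 and 1502 in wild-type skin. Its fold change was 2.90 ± 0.55, and it was 3.81 without wild type 2. Tcap, a titin-binding protein of muscle, had 1430, 1655 and 3802 in miR-205 KO skin and 219, 438 and 188 in wild-type skin (2.99 ± 0.56). With intensities below 16 set to 16, the adjusted p was 0.0606 for Scd3, 0.0529 for Krt77 and 0.0505 for Tcap. No skin value of these genes lies below 16 and their fold changes did not move, so these losses do not rest on their own background readings.

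**Figure D2:**
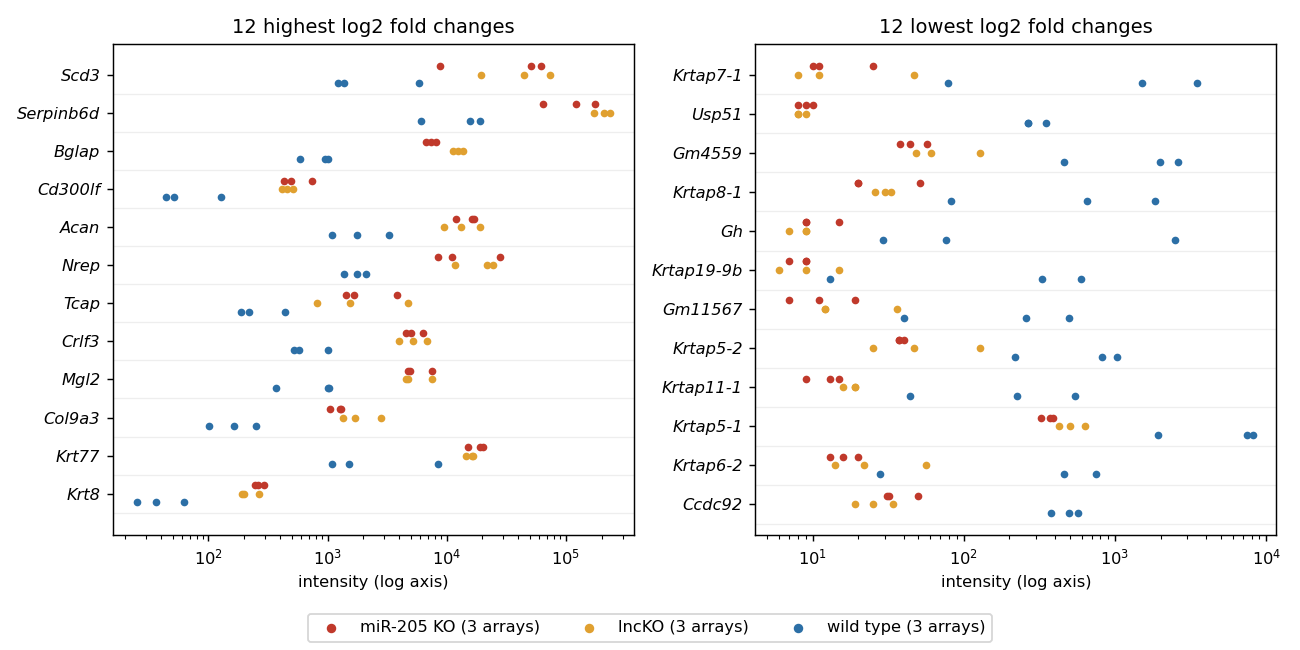
Intensity (log axis) on each of the 9 skin arrays for the 12 genes with the highest (left) and the 12 with the lowest (right) log2 fold change in miR-205 KO skin. Red points are miR-205 KO, orange lncKO and blue wild-type arrays; for Krtap7-1 wild type 3 lies at 79, between the knockout arrays and the other wild-type arrays.

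Genes named as keratin-associated proteins made up 7 of the 12 lowest fold changes. These are small proteins that cross-link keratin filaments in the hair shaft, and their genes are active while a follicle builds hair. Of the 50 measured, 36 were lower (72.0%) and 0 higher, beside 10.0% lower over all probe sets, with a median log2 fold change of -2.49 beside -0.07 over all probe sets. The list averaged 4.78, 4.76 and 5.16 on the log2 scale in miR-205 KO skin, 4.85, 5.52 and 4.84 in lncKO skin and 7.75, 8.38 and 5.61 in wild-type skin. Wild type 3 was thus nearer to the knockout arrays than to the other wild-type arrays, and it was the lowest wild-type array for 32 of the 36 genes. It lay within the range of the 6 knockout arrays for 13 of the 36, whereas wild type 1 and wild type 2 lay above all miR-205 KO arrays for all 36. The count was 44 without wild type 3, 22 without wild type 2 and 21 without miR-205 KO 7, and it was 7 with intensities below 16 set to 16.

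Krtap7-1 had 10, 11 and 25 in miR-205 KO skin, 11, 47 and 8 in lncKO skin and 1503, 3460 and 79 in wild-type skin. The log2 fold change was -5.73 ± 1.06 (limma, adjusted p = 0.00402), -7.35 without wild type 3 and -4.62 without wild type 2. With intensities below 16 set to 16 it was -5.32 and did not pass (adjusted p = 0.0567). Krtap5-1 had 374, 326 and 386 in miR-205 KO skin and 7417, 8128 and 1937 in wild-type skin (-3.76 ± 0.43; -4.43 without wild type 3). Krtap11-1 had 9, 13 and 15 in miR-205 KO skin and 224, 543 and 44 in wild-type skin (-3.86 ± 0.63; -4.85 without wild type 3 and -3.04 without wild type 2). Krtap5-2 had 37, 37 and 40 in miR-205 KO skin and 1037, 825 and 219 in wild-type skin (-3.91 ± 0.58; -4.61 without wild type 3). In each of these genes wild type 3 was the lowest wild-type array. That it lay above the miR-205 KO arrays follows from the choice, which left out genes whose groups overlap. Krtap3-2 and Krtap3-3 carried identical values, 127, 139 and 185 in miR-205 KO skin and 447, 1000 and 949 in wild-type skin, so they are 1 measurement (-2.34 ± 0.30). The counts of this list, 36 of 50 lower among them, hold both. Probe sets that share all their values were not merged in list counts. Members of this family are close copies that the probes may not tell apart.

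The promoters of the keratin-associated protein genes among the 12 lowest fold changes are shown because these genes moved together. Of 7 such genes, 6 matched RefSeq's promoter table (GRCm38.p6), and the 100 bases before each start are printed in the gene's direction, with capitals on the TATA box TATAAA and on the TCF and LEF core CTTTGA. The windows lie on the minus strand at chr16:89487953-89488052 (Krtap8-1), chr16:88932265-88932364 (Krtap19-9b), chr7:142176006-142176105 (Krtap5-2), chr16:89571184-89571283 (Krtap11-1), chr7:142297135-142297234 (Krtap5-1) and chr16:89420112-89420211 (Krtap6-2).
Krtap8-1: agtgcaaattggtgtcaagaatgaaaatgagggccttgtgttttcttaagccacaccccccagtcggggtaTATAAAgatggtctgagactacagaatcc
Krtap19-9b: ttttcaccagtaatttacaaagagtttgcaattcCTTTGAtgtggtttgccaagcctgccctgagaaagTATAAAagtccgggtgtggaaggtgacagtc
Krtap5-2: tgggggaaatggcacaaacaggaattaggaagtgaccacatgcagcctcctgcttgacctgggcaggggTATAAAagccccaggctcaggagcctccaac
Krtap11-1: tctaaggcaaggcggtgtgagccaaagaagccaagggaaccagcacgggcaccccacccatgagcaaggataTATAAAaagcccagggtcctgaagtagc
Krtap5-1: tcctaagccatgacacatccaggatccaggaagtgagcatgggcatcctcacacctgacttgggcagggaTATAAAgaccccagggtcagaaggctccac
Krtap6-2: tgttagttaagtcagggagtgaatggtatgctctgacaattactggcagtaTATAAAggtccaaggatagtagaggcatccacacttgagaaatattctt
The box TATAAA, read on the gene's strand, lay in 37 of 46 promoters of the family (80.4%) and in 1370 of 15688 promoters of measured genes (8.73%), in windows from 250 bases before to 50 after the start. Among the 33 family members that fell and have a promoter in the table, 26 held it (78.8%). The core CTTTGA, read on both strands, lay in 14 of 46 promoters of the family (30.4%) and in 14.8% of those of measured genes. These are matches of letters, not known binding sites.

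Krtap8-1, Krtap19-9b and Krtap6-2 also moved with the wild-type arrays. Krtap8-1 had 20, 20 and 51 in miR-205 KO skin and 648, 1843 and 82 in wild-type skin (-4.08 ± 0.80; -5.32 without wild type 3 and -3.08 without wild type 2). Krtap19-9b had 9, 9 and 7 in miR-205 KO skin and 328, 595 and 13 in wild-type skin (-4.04 ± 0.99). Krtap6-2 had 16, 13 and 20 in miR-205 KO skin and 462, 750 and 28 in wild-type skin (-3.73 ± 0.91). Wild type 3 was close to the knockout arrays for all 3 genes. The adjusted p of Krtap19-9b was 0.0551 without wild type 2 (-2.98), 0.0528 without wild type 1 (-3.41), 0.0522 without miR-205 KO 7 and 0.0527 without miR-205 KO 9, and the fold change was -5.74 without wild type 3. That of Krtap6-2 was 0.0545 without wild type 2 (-2.82), 0.0505 without wild type 1, 0.0533 without miR-205 KO 7 and 0.0514 without miR-205 KO 8, and the fold change was -5.19 without wild type 3. Gm4559 and Gm11567, predicted genes that also stood among the 12 lowest, had 38, 57 and 44 against 1988, 2620 and 457, and 11, 7 and 19 against 259, 493 and 40, in miR-205 KO against wild-type skin. Wild type 3 was the lowest wild-type array for both, and whether they belong to the keratin-associated protein family was not looked at. Their fold changes were -4.87 ± 0.54 and -3.92 ± 0.73, or -5.64 and -4.98 without wild type 3, and that of Gm11567 was -3.16 without wild type 2. With intensities below 16 set to 16 the adjusted p was 0.0641 for Krtap8-1, 0.168 for Krtap19-9b, 0.119 for Krtap6-2 and 0.0654 for Gm11567. Krtap8-1 has no skin value below 16, and its fold change did not move.

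Other hair lists gave fewer calls. Of the 9 hair shaft keratins measured, 2 were lower (22.2%), with a median of -1.16, and the count ranged from 0 without any 1 of the 3 miR-205 KO arrays or without wild type 2 to 6 without wild type 3. Of the 20 genes of the inner root sheath and hair matrix, 3 were lower (15.0%), with a median of -0.82, and the count was 12 without wild type 3, 0 without miR-205 KO 8 and 1 without miR-205 KO 7, miR-205 KO 9 or wild type 2. Both lists averaged lower on wild type 3, at 3.82 and 4.68, than on wild type 1, at 4.89 and 6.26, and on wild type 2, at 5.16 and 6.80. Dlx3, a homeobox gene of the hair matrix, had 58, 67 and 94 in miR-205 KO skin and 238, 577 and 104 in wild-type skin (-1.76 ± 0.45). It lost its call without miR-205 KO 7 (adjusted p = 0.0801, limma) and without miR-205 KO 8 (0.06), and its fold change was -2.37 without wild type 3 and -1.14 without wild type 2. Lef1, the Wnt-responsive factor of the hair matrix, had 49, 51 and 48 in miR-205 KO skin and 45, 81 and 56 in wild-type skin, which overlapped (-0.26 ± 0.26; adjusted p = 0.533). Of 11 genes of hair follicle stem cells, Fgf18 was higher, with 662, 919 and 883 in miR-205 KO skin and 179, 452 and 202 in wild-type skin (1.68 ± 0.33). Lgr6, a receptor of follicle progenitors, was lower at -1.21 ± 0.30, and its adjusted p was 0.0603 without miR-205 KO 7, 0.0637 without miR-205 KO 9 and 0.0554 without wild type 3. The list median was 0.08.

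**Figure D3:**
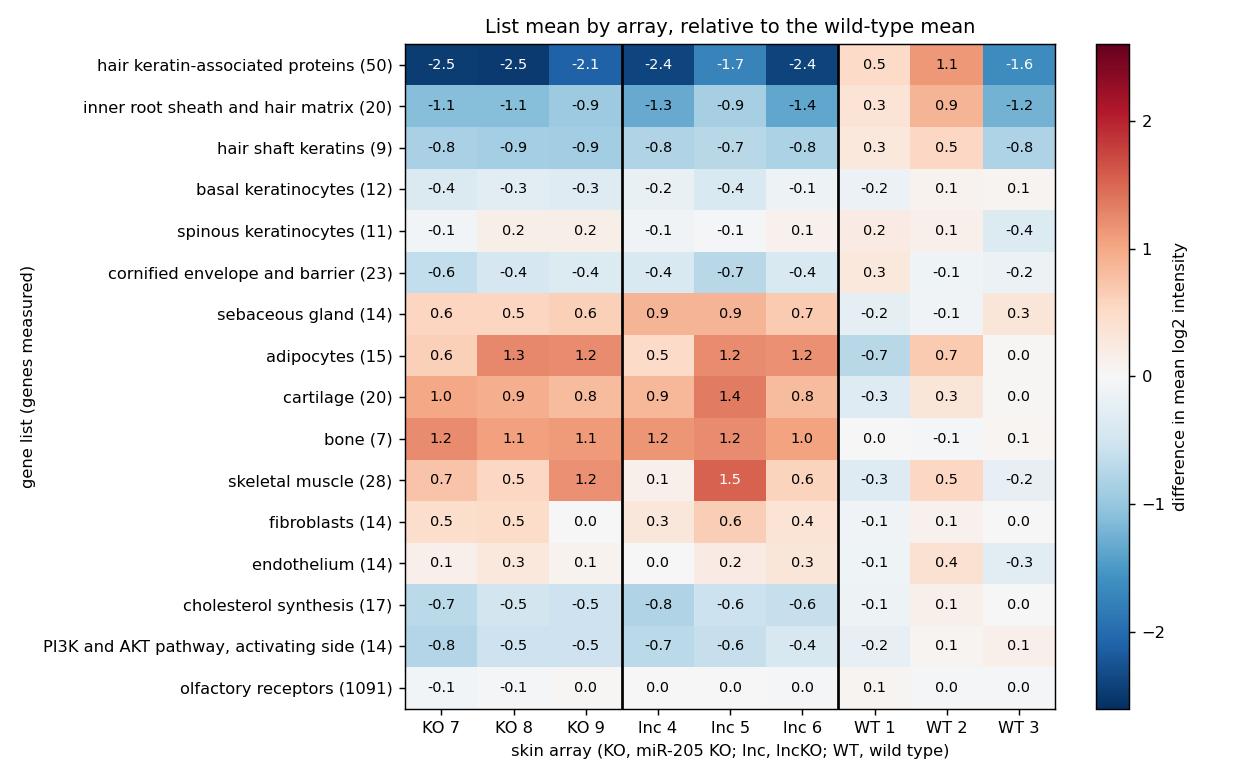
Mean log2 intensity of 16 gene lists on each of the 9 skin arrays, as the difference from the wild-type mean of that list (numbers in the cells; red higher, blue lower), with the genes measured in brackets. Hair keratin-associated proteins are 2.1 to 2.5 below on miR-205 KO arrays and 1.6 below on wild type 3, while cholesterol synthesis and the PI3K and AKT list are 0.5 to 0.8 below on miR-205 KO arrays.

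Of the 12 basal keratinocyte genes, 3 were lower and 0 higher, beside 10.0% lower and 6.79% higher over all probe sets, with a median of -0.25. The count was 1 without miR-205 KO 7, miR-205 KO 8 or wild type 3, and 1 with intensities below 16 set to 16. Itga3, an integrin subunit that binds laminin, had 190, 273 and 240 in miR-205 KO skin and 572, 896 and 843 in wild-type skin, without overlap (-1.71 ± 0.24; limma, adjusted p = 0.000858). Lama3, a chain of that laminin, had 1700, 1507 and 2007 in miR-205 KO skin and 3143, 3548 and 4481 in wild-type skin (-1.09 ± 0.29). Itgb4, the integrin of hemidesmosomes, had 482, 443 and 571 in miR-205 KO skin and 758, 1106 and 912 in wild-type skin (-0.88 ± 0.28). The adjusted p of Lama3 was 0.0688 without miR-205 KO 7, 0.0746 without miR-205 KO 8 and 0.0685 without wild type 3. That of Itgb4 was 0.127, 0.135 and 0.0705 without miR-205 KO 7, 8 and 9, 0.143 without wild type 2, 0.0929 without wild type 3 and 0.0773 with quantile normalization.

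Of the 11 spinous keratinocyte genes 2 were higher (18.2%) and 0 lower, beside 6.79% and 10.0% over all probe sets, with a median of 0.09. The higher count was 1 without any 1 of the 3 miR-205 KO arrays, without wild type 3 or with quantile normalization. Krt10, the main keratin of that layer, had 621186, 620055 and 753341 in miR-205 KO skin, 678979, 619688 and 654575 in lncKO skin and 345918, 314730 and 355555 in wild-type skin (0.97 ± 0.20; limma, adjusted p = 0.0067). With quantile normalization it was 0.54 and no longer passed (adjusted p = 0.0771). Krt1, its partner, had 67204, 69021 and 57179 in miR-205 KO skin and 126241, 27164 and 15850 in wild-type skin, where wild type 1 was above and the others below every miR-205 KO array (0.76 ± 0.55; adjusted p = 0.361).

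Of the 23 genes of the cornified envelope and barrier, 6 were lower (26.1%) and 3 higher (13.0%), beside 10.0% and 6.79% over all probe sets. The list median was -0.18. Cers3, a ceramide synthase of the skin barrier, had 316, 340 and 250 in miR-205 KO skin, 596, 338 and 465 in lncKO skin and 1636, 1796 and 1548 in wild-type skin (-2.47 ± 0.24; limma, adjusted p = 0.000114). Klk7, a protease that sheds corneocytes, had 23957, 27028 and 27425 in miR-205 KO skin and 77397, 81006 and 72280 in wild-type skin (-1.56 ± 0.21). Tgm1, the transglutaminase that cross-links the envelope, had 1687, 2115 and 2381 in miR-205 KO skin and 4324, 5276 and 4449 in wild-type skin (-1.19 ± 0.22). These 3 genes were lower on every miR-205 KO array than on any wild-type array, and they kept their calls under all 14 alternatives. Casp14, a caspase of cornification, had 269, 349 and 272 in miR-205 KO skin and 1527, 694 and 563 in wild-type skin (-1.52 ± 0.34). The 3 calls of higher members fell to 0 without miR-205 KO 8, miR-205 KO 9 or wild type 1, to 1 without miR-205 KO 7 or wild type 2, and to 0 with quantile normalization.

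Of the 14 desmosome genes 3 were higher and 3 lower (21.4% each), beside 6.79% and 10.0% over all probe sets. The list median was -0.22, and 1 was lower without miR-205 KO 7. The cadherin gene Dsc2 had 1197, 401 and 322 in miR-205 KO skin and 162, 101 and 89 in wild-type skin (2.24 ± 0.41), and the cadherin gene Dsg1a had 218916, 241742 and 215471 in miR-205 KO skin and 96290, 94982 and 118282 in wild-type skin (1.13 ± 0.23). Among plaque genes, Pkp3 and Jup were called lower, while 8 of the 14 desmosome genes were not called. Pkp3, plakophilin, had 161, 156 and 118 in miR-205 KO skin and 347, 366 and 320 in wild-type skin (-1.26 ± 0.24). Jup, plakoglobin, had 13160, 17278 and 22832 in miR-205 KO skin and 30269, 51597 and 41972 in wild-type skin (-1.22 ± 0.27), and its adjusted p was 0.0521 without miR-205 KO 7. Of 9 genes of wound and stress keratinocytes 1 was higher, with a list median of 0.43: Il1a, a cytokine released by damaged keratinocytes, had 1890, 1185 and 1594 in miR-205 KO skin and 276, 385 and 538 in wild-type skin (1.99 ± 0.33). The list averaged 7.40, 7.13 and 7.60 on the log2 scale in miR-205 KO skin and 8.65, 6.65 and 6.02 in wild-type skin, wild type 1 being the highest of all, and 5 of the 9 were higher without it.

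Calls among fat cell genes were mostly of higher genes, and those among cholesterol synthesis genes of lower ones. Over all probe sets 6.79% were higher and 10.0% lower. Of the 15 adipocyte genes 7 were higher (46.7%) and 1 lower (6.67%), with a median of 1.11, and 3 were higher with intensities below 16 set to 16. Lep, which encodes leptin, had 838, 1964 and 3117 in miR-205 KO skin and 245, 500 and 363 in wild-type skin (2.28 ± 0.40; limma, adjusted p = 0.0031). Plin4, a lipid droplet coat protein, had 992, 1201 and 1428 in miR-205 KO skin and 217, 586 and 295 in wild-type skin (1.83 ± 0.33). Pck1, of glycerol and glucose synthesis, had 158, 221 and 97 in miR-205 KO skin and 15, 35 and 52 in wild-type skin (2.32 ± 0.42). The groups did not overlap for any of the 3, and neither did they for Cebpa, a transcription factor of fat cells and keratinocytes, in the other direction, with 1734, 1771 and 2496 in miR-205 KO skin and 5697, 8971 and 5309 in wild-type skin (-1.72 ± 0.27). The list averaged 10.99, 11.63 and 11.61 on the log2 scale in miR-205 KO skin and 9.66, 11.05 and 10.41 in wild-type skin.

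Of the 14 sebaceous gland genes 6 were higher (42.9%) and 0 lower, beside 6.79% and 10.0% over all probe sets, with a median of 0.62. Besides Scd3, Mgst1 had 225236, 234104 and 257240 in miR-205 KO skin and 129648, 117507 and 135278 in wild-type skin (0.91 ± 0.20), and Pparg, a lipid-sensing nuclear receptor, had 10654, 9638 and 7503 in miR-205 KO skin and 5119, 5039 and 4336 in wild-type skin (0.93 ± 0.22). Elovl4, an elongase of very long fatty acids, was higher at 0.86 ± 0.22. The count of 6 was 2 without miR-205 KO 7, 3 without miR-205 KO 8, wild type 1 or wild type 2, and 2 with quantile normalization. Under quantile normalization Mgst1 and Elovl4 had adjusted p-values of 0.0598 and 0.168, Pparg had 0.0569 without miR-205 KO 7, and Elovl4 had 0.0591, 0.0631, 0.0604 and 0.0628 without miR-205 KO 7, miR-205 KO 8, wild type 1 and wild type 2. Of 9 fatty acid synthesis genes Elovl6, an elongase, was higher with 455480, 350175 and 425660 in miR-205 KO skin and 136908, 198843 and 174235 in wild-type skin (1.28 ± 0.29). Acly, which makes acetyl-CoA, was lower with 4938, 6117 and 4787 in miR-205 KO skin and 12503, 12306 and 9759 in wild-type skin (-1.13 ± 0.21). The median of that list was -0.30.

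Of the 17 cholesterol synthesis genes 9 were lower (52.9%) and 0 higher, beside 10.0% and 6.79% over all probe sets, with a median of -0.81. Stard4, a cholesterol carrier, had 670, 545 and 446 in miR-205 KO skin and 1692, 2166 and 1087 in wild-type skin (-1.54 ± 0.29; limma, adjusted p = 0.00482). Mvd, of the mevalonate pathway, had 281, 291 and 386 in miR-205 KO skin and 611, 873 and 593 in wild-type skin (-1.11 ± 0.24). Nsdhl, of the later sterol steps, had 4640, 4978 and 5025 in miR-205 KO skin and 8577, 8405 and 11379 in wild-type skin (-0.94 ± 0.22). All miR-205 KO arrays were below all wild-type arrays for these 3 genes. Insig1, a sensor of sterols, was lower at -1.08 ± 0.28, with an adjusted p of 0.0785 without miR-205 KO 7 and 0.0751 without wild type 2. The count of 9 was 4 without miR-205 KO 7 or wild type 2, 5 without miR-205 KO 9 and 5 with intensities below 16 set to 16.

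Cartilage, bone and muscle lists gave calls mostly of higher genes, whereas over all probe sets 6.79% were higher and 10.0% lower. Of the 20 cartilage genes 9 were higher (45.0%) and 0 lower, with a median of 0.78. Cnmd, chondromodulin, had 41826, 31850 and 28285 in miR-205 KO skin and 10084, 11576 and 12124 in wild-type skin (1.58 ± 0.28). Cytl1, a secreted factor of cartilage, had 880245, 895774 and 946608 in miR-205 KO skin and 410080, 336514 and 553216 in wild-type skin (1.10 ± 0.22; adjusted p = 0.0715 with quantile normalization, limma). The list averaged 9.17, 9.11 and 8.99 on the log2 scale in miR-205 KO skin and 7.82, 8.49 and 8.19 in wild-type skin. The count of 9 was 5 without miR-205 KO 7, miR-205 KO 8 or wild type 1, and 5 with intensities below 16 set to 16. Of 7 bone genes 3 were higher (42.9%), Bglap, Bglap2 and Ibsp, with a median of 0.55. Bglap and Bglap2 are close copies that the probes may not tell apart. Ibsp, a bone matrix sialoprotein, had 322, 139 and 95 in miR-205 KO skin and 28, 43 and 39 in wild-type skin (2.17 ± 0.48). The share of these differences that the amount of cartilage or bone in each ear piece accounts for was not tested.

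Of the 28 skeletal muscle genes 10 were higher (35.7%) and 1 lower (3.57%), beside 6.79% and 10.0% over all probe sets, with a median of 0.62. Myl1, a myosin light chain, had 206186, 176854 and 381662 in miR-205 KO skin, 155468, 323853 and 154101 in lncKO skin and 58686, 54983 and 31407 in wild-type skin (2.37 ± 0.37; limma, adjusted p = 0.00157). Ttn, the giant sarcomere protein titin, had 3562, 2606 and 3446 in miR-205 KO skin and 602, 974 and 766 in wild-type skin (2.05 ± 0.24). Mb, myoglobin, had 27518, 25047 and 34688 in miR-205 KO skin and 6621, 8211 and 5333 in wild-type skin (2.12 ± 0.32). The groups did not overlap for any of the 3. The list means overlapped: 11.52, 11.31 and 11.96 on the log2 scale in miR-205 KO skin and 10.44, 11.31 and 10.56 in wild-type skin. The 1 lower call was lost without any 1 array other than wild type 1, with quantile normalization and with the floor at 16. The count of 10 was 6 without miR-205 KO 7 or wild type 1, and 4 with intensities below 16 set to 16. The part of unequal amounts of muscle in the ear pieces was not tested.

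Of 14 fibroblast genes 3 were higher (21.4%) and 1 lower (7.14%), beside 6.79% and 10.0% over all probe sets, with a median of 0.24, and 1 was higher without miR-205 KO 7. Dpt, dermatopontin, had 253664, 233641 and 235325 in miR-205 KO skin, 196990, 245284 and 202856 in lncKO skin and 62305, 56651 and 44787 in wild-type skin (2.15 ± 0.21; limma, adjusted p = 0.000114). Dcn, the abundant proteoglycan decorin, had 1051395, 1006373 and 1139073 in miR-205 KO skin and 621975, 750274 and 657175 in wild-type skin (0.66 ± 0.20), and its adjusted p was 0.62 with quantile normalization and between 0.0563 and 0.106 without any 1 of the 6 arrays. Of 14 endothelial genes 1 was higher and 1 lower, with a median of 0.20. Cldn5, a tight junction claudin of vessels, had 302, 350 and 324 in miR-205 KO skin and 63, 95 and 51 in wild-type skin (2.27 ± 0.30). Tie1, a vessel receptor kinase, was lower at -1.02 ± 0.27, with an adjusted p of 0.093 without miR-205 KO 7 and 0.0774 without wild type 2. Of 10 smooth muscle and pericyte genes 1 was higher, the smooth muscle myosin Myh11, with 152, 179 and 96 in miR-205 KO skin and 52, 41 and 61 in wild-type skin (1.44 ± 0.26), and the list median was 0.04. Among 13 melanocyte genes 1 was higher (median 0.27), and among 9 Schwann cell genes 1 was higher (median -0.24). Both of these calls were lost without any 1 of miR-205 KO 7, miR-205 KO 8 and wild type 2.

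Immune cell lists are read beside the 6.79% higher and 10.0% lower over all probe sets. None of the 10 macrophage genes or the 8 neutrophil genes passed the test (0 of each), with medians of 0.18 and 0.09. Of 10 Langerhans and dendritic cell genes 2 were lower (median -0.07), of 11 lymphocyte genes 1 was higher and 1 lower (0.24), and of 8 mast cell genes 1 was higher (0.22). The dendritic cell calls were lost without miR-205 KO 7 or wild type 3, the higher lymphocyte call without miR-205 KO 7, wild type 2 or wild type 3, the lower lymphocyte call without any 1 array, and the mast cell call without any 1 array other than wild type 1. Of 36 chemokine ligands 5 were higher (13.9%) and 3 lower (8.33%), with a median of 0.06, and the higher count was 3 without any 1 of the 3 miR-205 KO arrays or wild type 3, while the lower count was 5 without wild type 1. Ccl8, a chemokine that attracts monocytes and T cells, had 6108, 7309 and 5914 in miR-205 KO skin, 2745, 4328 and 2674 in lncKO skin and 1185, 1158 and 632 in wild-type skin (2.75 ± 0.28; limma, adjusted p = 0.00015). Ccl27a, a chemokine of keratinocytes, had 106, 95 and 91 in miR-205 KO skin and 422, 344 and 233 in wild-type skin (-1.74 ± 0.24). Neither overlapped between groups. Cxcl3, which attracts neutrophils, had 115, 100 and 111 in miR-205 KO skin and 59, 48 and 47 in wild-type skin (1.09 ± 0.24).

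Of the 22 interferon-stimulated genes 2 were higher (9.09%) and 3 lower (13.6%), near the 6.79% and 10.0% over all probe sets. The median was -0.22, or -0.06 with quantile normalization. Of these genes 4 were higher without wild type 1 and 1 without miR-205 KO 7, miR-205 KO 8 or wild type 3. Bst2, the antiviral protein tetherin, had 611, 586 and 794 in miR-205 KO skin and 190, 171 and 121 in wild-type skin (2.06 ± 0.23; limma, adjusted p = 0.000248). Rsad2, the antiviral enzyme viperin, was dim and lower, with 13, 17 and 12 in miR-205 KO skin and 46, 70 and 30 in wild-type skin (-1.73 ± 0.30). The chemokine Cxcl10 had 15, 15 and 21 in miR-205 KO skin and 42, 34 and 33 in wild-type skin (-1.11 ± 0.22). Of 8 genes of MHC class I presentation 2 were higher and 1 lower, with a median of -0.01, and 1 was higher without any 1 array other than wild type 2, while 2 were lower without wild type 1. H2-D1, a class I heavy chain, had 3763, 4041 and 3104 in miR-205 KO skin and 1435, 2133 and 1704 in wild-type skin (1.06 ± 0.23). Tap1, a peptide transporter, had 332, 332 and 297 in miR-205 KO skin and 620, 616 and 922 in wild-type skin (-1.14 ± 0.26).

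Among lists of tissues that a piece of ear should hardly hold, pituitary hormones, liver and salivary gland averaged near the background, apart from pituitary hormones on wild type 1 (5.29, log2). The 2 erythrocyte genes averaged 6.94 to 7.57 in miR-205 KO skin and 6.52 to 7.18 in wild-type skin. Major urinary proteins averaged 6.16 to 6.79 and 5.03 to 6.97, so these lists lay above the background. Of 10 pituitary hormone genes 3 were lower and 1 higher, with a median of -0.54, and 0 were lower without miR-205 KO 7 or miR-205 KO 8 and 1 without miR-205 KO 9 or wild type 2. Gh, growth hormone, had 15, 9 and 9 in miR-205 KO skin, 9, 9 and 7 in lncKO skin and 2501, 29 and 76 in wild-type skin. Wild type 1 was far above every other skin array, and Prl, prolactin, was also highest there, with 10, 13 and 7 in miR-205 KO skin and 72, 20 and 14 in wild-type skin. The log2 fold change of Gh was -4.05 ± 1.11 (limma, adjusted p = 0.0256), -2.14 without wild type 1, -5.35 without wild type 2 and -4.66 without wild type 3, and its adjusted p was 0.0628, 0.0731 and 0.0758 without miR-205 KO 7, 8 and 9. Prl, at -1.49 ± 0.47, had adjusted p-values of 0.112, 0.0615, 0.147, 0.097 and 0.0516 without miR-205 KO 7, 8 and 9, wild type 1 and wild type 2, and its fold change was -0.79 without wild type 1. Tshb, the thyrotropin subunit, had 63, 40 and 44 in miR-205 KO skin and 24, 16 and 18 in wild-type skin (1.34 ± 0.26). Of the 8 liver genes 0 passed (median 0.29), of the 2 erythrocyte genes measured 0 passed (median 0.41), and of 5 salivary gland genes 2 were higher (median 0.47), or 1 without miR-205 KO 7, miR-205 KO 9 or wild type 1. Of 9 major urinary protein genes 1 was higher, Mup5, with 50, 31 and 58 in miR-205 KO skin and 16, 12 and 13 in wild-type skin (1.72 ± 0.27), and the list median was 0.49, or -0.06 without wild type 3.

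**Figure D4:**
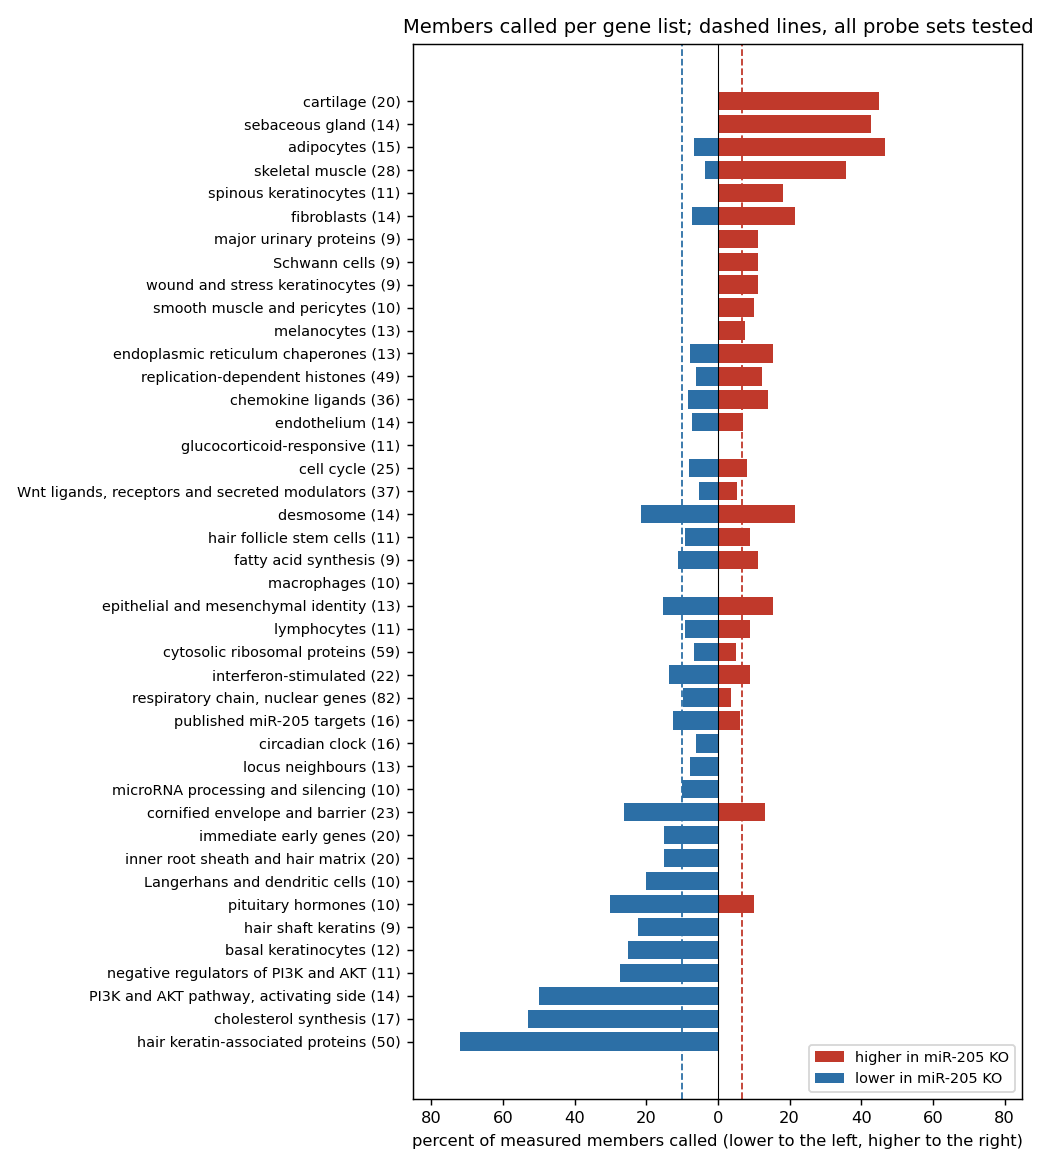
Percent of the measured members of each gene list with 9 or more measured genes that were called higher (red, to the right) or lower (blue, to the left) in miR-205 KO skin, olfactory receptors left out, with the genes measured in brackets. Dashed lines mark the 6.79% higher and 10.0% lower over all probe sets tested; hair keratin-associated proteins reach 72.0% lower and adipocytes 46.7% higher.

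Of the 16 measured messages reported as targets of miR-205, 1 was higher (6.25%) and 2 lower (12.5%), shares near the 6.79% and 10.0% of all probe sets, with a median of 0.13 beside -0.07. Zeb1, a repressor of epithelial genes, had 4865, 4796 and 4878 in miR-205 KO skin and 6436, 4118 and 4783 in wild-type skin, overlapping, with a log2 difference of -0.05 (95% interval -0.56 to 0.46; limma, adjusted p = 0.907). Inppl1, the lipid phosphatase SHIP2, had 334, 564 and 385 in miR-205 KO skin and 462, 499 and 316 in wild-type skin, with a difference of -0.00 (-0.58 to 0.58; adjusted p = 0.999). Vegfa, a vessel growth factor, differed by 0.37 (-0.18 to 0.92), Erbb3, a receptor of the epidermal growth factor family, by 0.14 (-0.37 to 0.65), and Lrp1, an endocytic receptor, by -0.00 (-0.54 to 0.53).

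Bcl2, which protects cells from apoptosis, had 1765, 1792 and 3434 in miR-205 KO skin and 1142, 1268 and 1349 in wild-type skin. The groups did not overlap and the difference of 0.83 ± 0.27 missed the threshold (limma, adjusted p = 0.0523). E2f1, a cell cycle factor, had 57, 54 and 70 in miR-205 KO skin, 18, 62 and 48 in lncKO skin and 27, 26 and 22 in wild-type skin (1.27 ± 0.36; adjusted p = 0.0316, limma). It did not pass without any 1 of the 6 arrays, at adjusted p-values of 0.0814, 0.0642 and 0.0995 without miR-205 KO 7, 8 and 9 and 0.0527, 0.0654 and 0.0812 without wild type 1, 2 and 3. Inpp4b, Frk, Prkce, E2f5, Yes1, Src and Med1 differed by between -0.34 (Med1) and 0.27 (Frk), each with an interval that spanned 0.

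Phlda3 and Phlpp2, both negative regulators of AKT, were lower. Phlda3 had 61, 67 and 39 in miR-205 KO skin, 93, 121 and 75 in lncKO skin and 142, 110 and 132 in wild-type skin (-1.23 ± 0.26; limma, adjusted p = 0.00809). Phlpp2, an AKT phosphatase, had 81, 65 and 89 in miR-205 KO skin and 123, 154 and 147 in wild-type skin (-0.86 ± 0.21), with an adjusted p of 0.0708 without miR-205 KO 8 and 0.0563 without wild type 2. The miR-205 KO arrays lay below all wild-type arrays for both. Of the 11 negative regulators of PI3K and AKT measured, 3 were lower (27.3%) and 0 higher, beside 10.0% and 6.79% over all probe sets. The list median was -0.00 (0.16 with quantile normalization). The other call was Tsc1, a brake on mTOR, with 184, 230 and 144 in miR-205 KO skin and 332, 437 and 518 in wild-type skin (-1.21 ± 0.25).

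Of 14 genes on the activating side of the pathway 7 were lower and 0 higher, beside 10.0% lower and 6.79% higher over all probe sets, with a median of -0.66. Egfr, the epidermal growth factor receptor, had 99, 106 and 95 in miR-205 KO skin, 95, 89 and 112 in lncKO skin and 287, 359 and 370 in wild-type skin (-1.75 ± 0.21; limma, adjusted p = 0.000331). Insr, the insulin receptor, had 1378, 1639 and 1878 in miR-205 KO skin and 4172, 5066 and 4970 in wild-type skin (-1.54 ± 0.21). Erbb2, another receptor of the same family, had 344, 401 and 412 in miR-205 KO skin and 962, 1115 and 869 in wild-type skin (-1.35 ± 0.22). For these 3 receptors every miR-205 KO array lay below every wild-type array, which follows largely from their choice by smallest p. Their calls held under all 14 alternatives. Pdpk1, the kinase that activates AKT, was lower at -0.78 ± 0.21, with an adjusted p of 0.072, 0.101, 0.0719 and 0.0708 without miR-205 KO 7, miR-205 KO 8, wild type 2 and wild type 3, and 0.0553 with quantile normalization. The count of 7 was 3 without miR-205 KO 7, wild type 2 or wild type 3, and 4 without miR-205 KO 8, without wild type 1 or with quantile normalization. In lncKO skin 4 of the 14 were lower and 0 higher against wild type, with a median of -0.59, so the fall was not particular to miR-205 KO skin.

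**Figure D5:**
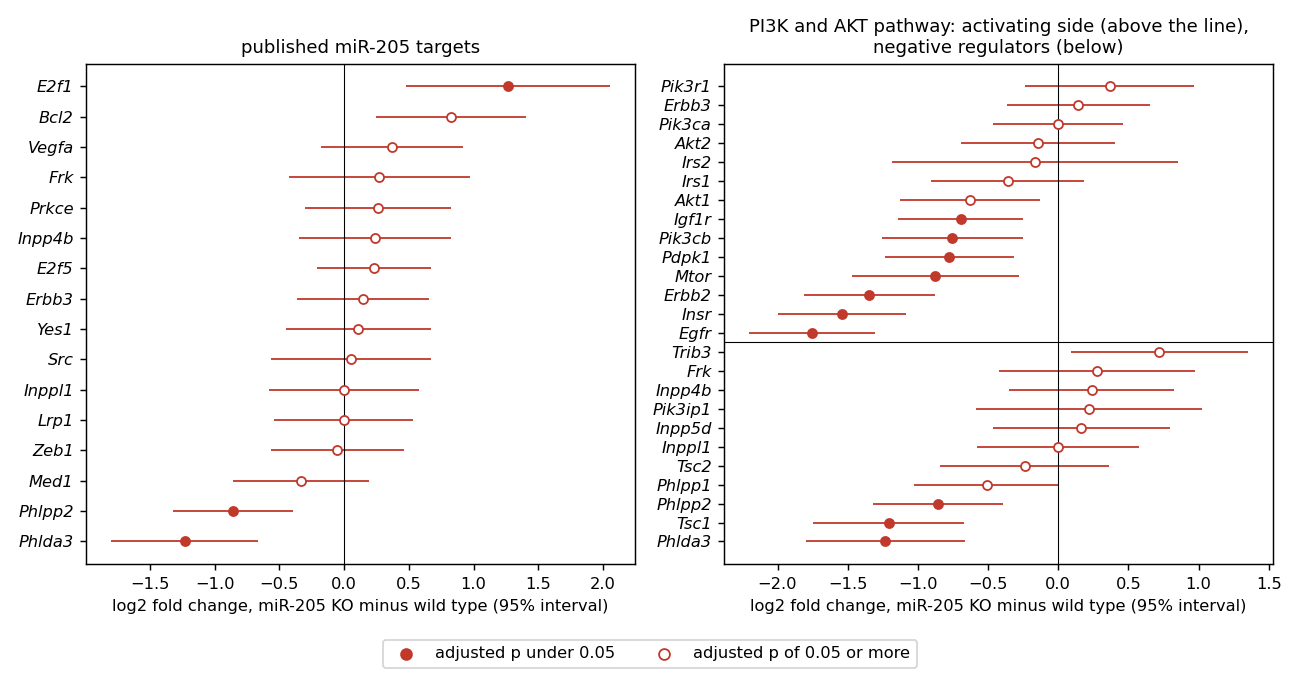
Log2 fold change in miR-205 KO against wild-type skin with 95% intervals for the 16 published targets of miR-205 (left) and for genes of the PI3K and AKT pathway (right), activating members above the line and negative regulators below it. Filled points passed the test; Egfr, Insr and Erbb2 lie between -1.75 and -1.35, and 1 published target, E2f1, was called higher.

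Of 13 genes of epithelial and mesenchymal identity 2 were higher and 2 lower (15.4% each), beside 6.79% and 10.0% over all probe sets. The list median was 0.09. Grhl2, which maintains epithelial genes, had 296, 244 and 320 in miR-205 KO skin and 874, 1188 and 875 in wild-type skin (-1.77 ± 0.26; limma, adjusted p = 0.00119). Twist1, a mesenchymal factor, had 474, 432 and 440 in miR-205 KO skin and 177, 190 and 185 in wild-type skin (1.29 ± 0.23). Neither overlapped between groups. Esrp2, an epithelial splicing regulator, was lower at -1.45 ± 0.35 (adjusted p = 0.0709 without miR-205 KO 7 and 0.0568 without wild type 2), and Snai2, a mesenchymal factor that basal keratinocytes also express, was higher at 1.47 ± 0.35 (0.0525 without miR-205 KO 9). Of 10 genes of microRNA processing and silencing 1 was lower, Ago1, at -0.84 ± 0.23 (median -0.31), and its adjusted p was 0.0895, 0.0654, 0.0661 and 0.0951 without miR-205 KO 7, 8 and 9 and wild type 2.

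Genes beside Mir205 on the chromosome were near the background share. Of 13 listed neighbours 1 was lower (7.69%) and 0 higher, with a median of -0.15, and of the 20 nearest measured genes, 15 before and 5 after Mir205 in the RefSeq order, 2 were called (10.0%), beside 16.8% of all probe sets. Camk1g, the nearest measured gene before it, had 42, 28 and 55 in miR-205 KO skin and 28, 26 and 40 in wild-type skin (0.38 ± 0.30; limma, adjusted p = 0.399). Lamb3, a laminin chain of the epidermal basement membrane, had 501, 578 and 637 in miR-205 KO skin and 475, 890 and 766 in wild-type skin (-0.27 ± 0.27; adjusted p = 0.529). Plxna2, the nearest after it, overlapped too (-0.43 ± 0.25; adjusted p = 0.252). The calls were Cr1l, a complement regulator, with 7841, 10462 and 8240 in miR-205 KO skin and 13864, 14411 and 20205 in wild-type skin (-0.86 ± 0.23), and Rd3, which was chosen after its value was seen, with 27, 32 and 19 in miR-205 KO skin and 13, 15 and 15 in wild-type skin (0.83 ± 0.25). The adjusted p of Cr1l was 0.083, 0.0645 and 0.0768 without miR-205 KO 7, miR-205 KO 9 and wild type 3.

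Among signalling genes, 2 of 37 Wnt ligands, receptors and secreted modulators were higher and 2 lower (5.41% each), beside 6.79% and 10.0% over all probe sets. The median was -0.07 (0.06 with quantile normalization). Of the 37, 1 was higher without miR-205 KO 7, miR-205 KO 9 or wild type 3, while 4 were lower without wild type 1. Wnt7b, an epidermal Wnt ligand, had 90, 104 and 105 in miR-205 KO skin and 31, 46 and 35 in wild-type skin (1.43 ± 0.22; limma, adjusted p = 0.00137). The receptor Fzd7 had 901, 1305 and 1113 in miR-205 KO skin and 3313, 3703 and 1963 in wild-type skin (-1.40 ± 0.28), and the receptor Fzd6 had 1359, 1127 and 997 in miR-205 KO skin and 2501, 2299 and 2465 in wild-type skin (-1.07 ± 0.22). Groups did not overlap for these 3 genes. Of 20 immediate early genes 3 were lower (15.0%) and 0 higher, with a median of -0.21. Fosl2, an AP-1 factor, had 289, 422 and 431 in miR-205 KO skin and 886, 1193 and 1733 in wild-type skin (-1.71 ± 0.29). Btg2, an antiproliferative gene, had 417, 873 and 508 in miR-205 KO skin and 1674, 1398 and 2159 in wild-type skin (-1.59 ± 0.28). Of 16 circadian clock genes 1 was lower (median -0.29; 5 without wild type 1 and 0 without any 1 of the other 5 arrays), and of 11 glucocorticoid-responsive genes 0 passed (median -0.51). Without wild type 3 the median of that list was 0.51, and without wild type 1 it was -1.43 with 2 genes lower. The glucocorticoid list averaged 11.93, 12.45 and 12.63 on the log2 scale in miR-205 KO skin and 11.69, 12.46 and 14.57 in wild-type skin, highest on wild type 3.

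Of 25 cell cycle genes 2 were higher and 2 lower (8.00% each), beside 6.79% and 10.0% over all probe sets, with a median of 0.00. The counts without 1 array were 1 to 2 and 1 to 3. Mcm2, of the replication helicase, had 114, 87 and 59 in miR-205 KO skin and 263, 386 and 249 in wild-type skin (-1.81 ± 0.30; limma, adjusted p = 0.00249). Aurka, a mitotic kinase, had 98, 113 and 111 in miR-205 KO skin and 60, 40 and 39 in wild-type skin (1.24 ± 0.28). Of 82 nuclear genes of the respiratory chain 3 were higher (3.66%) and 8 lower (9.76%), with a median of -0.03, and of 59 cytosolic ribosomal protein genes 3 were higher (5.08%) and 4 lower (6.78%), with a median of -0.02. Each of these shares was below that over all probe sets. Leaving out 1 array gave 0 to 2 higher and 2 to 5 lower respiratory genes and 0 to 2 higher and 0 to 3 lower ribosomal genes, fewest without miR-205 KO 7 among those called lower. Cox8a, a subunit of cytochrome oxidase, had 6797, 9128 and 11830 in miR-205 KO skin and 21304, 19356 and 23794 in wild-type skin (-1.25 ± 0.24). Of 49 replication-dependent histone genes, which are close copies, 6 were higher (12.2%) and 3 lower (6.12%), with a median of -0.16, and H2bc21 had 113, 162 and 160 in miR-205 KO skin and 35, 48 and 28 in wild-type skin (1.99 ± 0.26). The histone counts were 1 higher and 0 lower without miR-205 KO 7, 1 and 1 without miR-205 KO 8. Of 13 endoplasmic reticulum chaperone genes 2 were higher and 1 lower (median -0.05), and of 8 heat shock genes 1 was higher (median 0.24), with 0 higher in either list without any 1 of the 3 miR-205 KO arrays, wild type 1 or wild type 3. Of 1091 olfactory receptor genes, which have no known role in skin and lay near the background, 33 were higher (3.02%) and 45 lower (4.12%), with a median of -0.06, and with quantile normalization 45 were higher and 33 lower. Leaving out 1 array gave 18 to 22 higher and 17 to 39 lower, 17 without miR-205 KO 7 and 22 without miR-205 KO 8.

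The skin of the lncKO mice was compared with the same wild-type arrays, so the comparisons share their controls and only the direct contrast tests a difference between the knockouts. Against wild type, 1215 probe sets were higher (6.21%) and 1794 lower (9.17%) in lncKO skin. Between miR-205 KO and lncKO skin 0 probe sets passed in limma, with a lowest adjusted p of 0.29, and 637 had an unadjusted p under 0.05 (3.25%), 303 higher (1.55%) and 334 lower (1.71%). Without lncKO 4 the count was 1, and with all 18 arrays in the fit it was 6. The lncKO skin had 32 of the 50 keratin-associated protein genes lower and 0 higher (median -2.28), and 10 of 20 cartilage genes higher and 0 lower. Of 15 adipocyte genes 6 were higher and 1 lower, and of 28 skeletal muscle genes 9 and 1. Of 14 sebaceous gland genes 6 were higher and 0 lower, and of 17 cholesterol synthesis genes 0 and 6. On the activating side of the PI3K and AKT pathway 4 of 14 genes were lower and 0 higher.

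The genes with the smallest p in that contrast were Ctse, Tnnt2, Efcab7 and Tmem242, none of which passed. Ctse, the protease cathepsin E, had 86, 144 and 221 in miR-205 KO skin, 13, 27 and 17 in lncKO skin and 26, 41 and 12 in wild-type skin. The miR-205 KO arrays were above all others, by 2.95 ± 0.44 over lncKO (limma, adjusted p = 0.29) and by 2.58 ± 0.44 over wild type (adjusted p = 0.00267). Tnnt2, cardiac troponin T, had 533, 681 and 968 in miR-205 KO skin, 277, 215 and 255 in lncKO skin and 303, 291 and 354 in wild-type skin, again highest in miR-205 KO skin (1.16 ± 0.25 over wild type; adjusted p = 0.00771). Efcab7 had 241, 207 and 330 in miR-205 KO skin, 1136, 583 and 769 in lncKO skin and 207, 323 and 173 in wild-type skin, and here the lncKO arrays stood apart. Tmem242 had 814, 763 and 938 in miR-205 KO skin, 312, 394 and 344 in lncKO skin and 626, 462 and 377 in wild-type skin (0.81 ± 0.23 over wild type), and its adjusted p against wild type was between 0.0619 and 0.114 without each array other than wild type 1. Among major urinary protein genes 6 of 9 were higher in lncKO skin against wild type, with a median of 1.77 beside 0.49 in miR-205 KO skin, and 5 of 9 had an unadjusted p under 0.05 in the direct contrast (beside 3.25% of all probe sets). None of them passed after adjustment there, and whether the probes tell these genes apart was not tested.

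In pituitary the same knockout gave 8 probe sets higher (0.0409%) and 13 lower (0.0664%), together 21 (0.107%), in 3 miR-205 KO against 3 wild-type arrays. The difference between the effect in skin and the effect in pituitary was called for 1948 probe sets (9.95%), 723 higher (3.69%) and 1225 lower (6.26%) in skin. Of the 24 genes with the highest and lowest fold changes in skin, 0 passed in pituitary, where their log2 fold changes were at most 0.87 in size, and 23 passed the test of the difference (limma, adjusted p from 1.32e-09 to 0.0283). Gh was the exception. The genes were chosen by their change in skin, and 7 of the 24 lay at or below 16 on all 6 pituitary arrays compared, where no effect could be read, so that for these the test restates the skin change. Another 8, among them Usp51, Crlf3, Krt8 and Ccdc92, lay above 64 on all 6. Among the rest, Serpinb6d at 12 to 21, Gm11567 at 8 to 18, Krtap8-1 at 17 to 42 and Krtap5-2 at 16 to 40 were close to the background in pituitary. Acan at 25 to 44, Gm4559 at 27 to 45, Col9a3 at 14 to 46, Bglap at 16 to 58 and Cd300lf at 34 to 69 were dim there. Close to the background little of an effect could be read, and in the dim genes little of a fall. Without pituitary wild type 11, 812 probe sets were called lower in that test.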

How the data were processed

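Skin RNA from 3 miR-205 KO and 3 wild-type samples was measured on Clariom S arrays, beside 3 lncKO skin and 9 pituitary arrays. The authors deposited 1 linear intensity per probe set and array, in whole numbers from 4 to 1243875. How the authors corrected the background, summarised probes, normalized or filtered these intensities is not stated in the labels or the table. Per the labels' protocols, RNA of the frozen ear piece was extracted with a commercial kit, amplified and labelled as cDNA. Arrays have no depth, and their number limits the precision: the median SE of a log2 fold change was 0.26.

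Of 22206 probe sets, 19572 carry 1 gene symbol, 0 several and 2634 none; all 19572 matched RefSeq (GRCm38.p6) by gene ID, giving 19505 genes. No pair of skin arrays shared more than 5.26% of values, so none was treated as a repeat, while 142 probe sets share their values on all 18 arrays with another. Intensities were log2 transformed with no pseudocount and no further normalization. limma 3.58.1 (R 4.3.3; lmFit and eBayes, two-sided, Benjamini-Hochberg over 19572, threshold 0.05) was fitted to the 9 skin arrays with a term per group, leaving 6 residual degrees of freedom; the tissue contrast used all 18 arrays. The fit was tested on simulated data. Errors are SE, n = 3 per group.

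The genes named were the 12 highest and 12 lowest fold changes among called genes whose groups do not overlap and whose higher group averages at least 6 (log2). Added were up to 4 called members per list by smallest p, keratins, Lef1, Gh, published targets and locus neighbours, genes at or below 16 on all miR-205 KO and above 64 on all wild-type arrays or the reverse, the 10 smallest adjusted p, and the 4 smallest p between the knockouts. Rd3 was named after its value was seen. The 52 gene lists cover keratinocyte layers, hair, lipid, other resident or foreign cell types, immune cells, miR-205 and PI3K biology, signalling and housekeeping. A list is described by counts and medians, and each gene by its brightest probe set. The members and lists were chosen with earlier results of these data known. Alternatives were quantile normalization, median centring, a floor of 16, a filter at a mean log2 of 5, all probe sets, a variance trend, 6 or 18 arrays, and leaving out each array. Values for some genes are not reported here.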

Additional observations from a re-analysis of the deposited data

Results flagged for a closer look

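For 23 genes the effect of the knockout differed between skin and pituitary in the test of that difference (limma, all 18 arrays, adjusted over all probe sets tested). They were taken from the 24 genes with the largest changes in skin, so the skin side is large by choice, and 0 of them passed in pituitary. For Tcap, Mgl2, Krt77, Krtap7-1, Krtap19-9b, Krtap11-1 and Krtap6-2 all 6 pituitary arrays lay at or below an intensity of 16, so no pituitary effect could be read and the value restates the skin change. Serpinb6d, Gm11567, Krtap8-1 and Krtap5-2 lay close to the background there, at 8 to 42, so for them too the value is mostly the skin change. Acan, Gm4559, Col9a3, Bglap and Cd300lf were dim there, at 14 to 69, so little of a fall in pituitary could be read for them. Values are the log2 effect in skin minus that in pituitary, with SE.

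Among genes higher in skin, the difference was 4.06 ± 0.88 for Scd3 and 4.03 ± 0.37 for Bglap, whose pituitary fold changes were -0.23 and -0.87. It was 3.47 ± 0.51 for Col9a3, 3.17 ± 0.48 for Cd300lf and 3.17 ± 0.46 for Acan. It was 3.06 ± 0.65 for Tcap, 3.05 ± 0.51 for Nrep, 2.99 ± 0.66 for Krt77 and 2.92 ± 0.37 for Krt8. It was 2.89 ± 0.45 for Mgl2, 2.88 ± 0.35 for Crlf3 and 2.83 ± 0.52 for Serpinb6d.

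Among genes lower in skin, the difference was -5.57 ± 1.22 for Krtap7-1, -5.04 ± 0.27 for Usp51 and -4.77 ± 0.67 for Gm4559. It was -4.31 ± 0.74 for Krtap11-1, -4.26 ± 0.96 for Krtap8-1, -4.19 ± 1.06 for Krtap6-2 and -4.11 ± 1.15 for Krtap19-9b. It was -4.03 ± 0.90 for Gm11567, -3.94 ± 0.75 for Krtap5-2, -3.63 ± 0.33 for Ccdc92 and -3.52 ± 0.56 for Krtap5-1.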

How the results depend on the processing

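The balance of calls turned: 1643 higher to 1629 lower with quantile normalization and 1677 to 1590 with centring, against 1328 to 1965. No named gene that was called changed sign under the alternatives run. List medians near 0 did, as did those of glucocorticoid-responsive genes (-0.51, and 0.51 without wild type 3) and major urinary proteins (0.49, and -0.06 without wild type 3). Against wild type, setting intensities below 16 to 16 left 2173 calls in place of 3293, and 1262 lower in place of 1965. Some genes with no skin value below 16, Lama3, Itgb4, Casp14 and Insig1 among them, also lost their call, though their fold changes did not move. The reason for the lost calls was not tested. Leaving out 1 array, which leaves fewer samples, gave 1668 to 2775 calls, 683 to 1017 higher and 985 to 1758 lower. Between miR-205 KO and lncKO skin the 0 calls became 6 (4 higher, 2 lower) with all 18 arrays, where the cause was not tested, and 1 (1 higher) without lncKO 4, the range over arrays left out being 0 to 1. For the difference between tissues the arrays left out gave 1322 to 2006 calls, 500 to 686 higher and 812 to 1320 lower. The other alternatives kept these counts within 1.5 times, from 2375 to 4655 calls against wild type.

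Of 154 named genes called, 83 kept their call under all 14 alternatives. Calls lost numbered 48 with the floor of 16 (Lama3, Itgb4, Casp14, Dlx3, Lgr6, Insig1, Ibsp, Tie1, Gh, Prl, E2f1, Snai2 and Esrp2 among them), 16 with only the 6 arrays compared, 14 with quantile normalization, 7 with centring and 5 with the variance trend. No paired analysis was possible because the numbers in the labels do not recur between groups. Values near the background, brightness at the top of the scale and 3 arrays per group limit what can be told.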

Other observations

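The effect of the knockout in pituitary rests on other arrays than the effect in skin. Of the 21 probe sets called in pituitary, 8 were also called in skin, where 16.8% of all probe sets were called, 6 in the same direction and 2 in the opposite one. They are named after their values were seen. Ctse, cathepsin E, was higher in both tissues, by 2.58 ± 0.44 in skin and 2.10 ± 0.19 in pituitary (log2, SE, limma), where it had 25, 31 and 40 in miR-205 KO and 7, 8 and 7 in wild-type arrays. Fzd6, a Wnt receptor, was lower in both, at -1.07 ± 0.22 in skin and -1.99 ± 0.22 in pituitary, where it had 377, 352 and 260 in miR-205 KO and 1378, 1287 and 1224 in wild-type arrays. Dynlt1b, a dynein light chain, differed by -1.01 in skin and -1.22 in pituitary, Obp2a by -1.64 and -1.22, Slc35f1 by -1.59 and -1.05, and Tnr, a tenascin, by -1.05 and -1.16. Hmcn1, hemicentin, was lower in skin at -0.81 and higher in pituitary at 1.29. Adtrp was higher in skin at 0.90 and lower in pituitary at -1.49.

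Of the 21 probe sets called in pituitary 7 lie on chromosome 1, which carries Mir205 and holds 5.56% of the probe sets tested. Ctse, Tnr and Hmcn1, named above, are among these 7. In skin 18.8% of the 1089 probe sets on that chromosome were called, beside 13.8% to 19.3% on the other chromosomes, Y left out.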
